A study of Mus musculus with 3 samples.

Results

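The genes described here encode the subunits, activators, inhibitor and dedicated assembly chaperones of the mouse proteasome. They were chosen by name alone, as the genes whose symbol is Psm followed by a letter from a to g and a number, without the interferon-inducible subunits Psmb8, Psmb9 and Psmb10. This gave 45 of the 55573 genes listed. Expression was measured by UMI-RNAseq in 3 libraries of NIH3T3 cells, an established line of mouse embryonic fibroblasts, grown without treatment in DMEM with fetal bovine serum and antibiotics. All libraries share this 1 condition and 1 line, so no groups could be compared. No label says whether the libraries came from separate cultures, and the spread between them may therefore be technical only. In this assay, reads carry a random tag (unique molecular identifier, UMI), and reads with the same tag at the same place are counted as 1 fragment. Levels are given as FPKM, in which the fragments of a gene are divided by its length in kilobases and by the library's counted fragments in units of 1000000. The libraries held 14423209, 13959723 and 14307241 fragments.

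The proteasome is the main protease of the cytosol and nucleus. Its 20S core is a barrel of stacked rings of alpha and beta subunits, in which the proteolytic sites of the beta subunits face an inner chamber. The 19S particle caps the barrel, and its base, which holds a ring of ATPases, unfolds ubiquitin-tagged proteins and opens the gate of the alpha ring, whereas its lid removes the ubiquitin. Core and caps together form the 26S proteasome, which every nucleated cell needs for protein turnover.

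The extraction text of the labels mentions retinas, so the labelled cell type was checked against marker genes. Of 12 fibroblast genes, 11 had a mean FPKM of at least 1 and their summed FPKM was 9836 to 9967 per library, with fibronectin (Fn1) at 4377 FPKM and lumican (Lum) at 0. Of 12 retina genes, none reached 1 FPKM, their summed FPKM was 1.01 to 1.61, and Nrl and Pax6 were among those at 0 in all libraries. The proteasome values below thus come from libraries with fibroblast transcripts and nearly no retinal ones.

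Proteasome genes were broadly expressed. Of the 45 genes, 43 had a mean FPKM of at least 1, 42 of at least 10 and 30 of at least 50, whereas 14.8% of all genes listed reached 10 FPKM. The median over the 45 genes was 77.4 FPKM in library 1, 76.4 in library 2 and 74.5 in library 3, compared with a median of 17.5 FPKM over the 12905 genes that averaged 1 FPKM or more. Together they took 0.402% to 0.404% of the counted fragments and 0.547% to 0.555% of the summed FPKM. The 2 genes below 1 FPKM were Psma8 and Psmb11, which encode subunits known from germ cells and from the thymus. Psmg3, an assembly chaperone, lay between 1 and 10 FPKM.

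**Figure D1:**
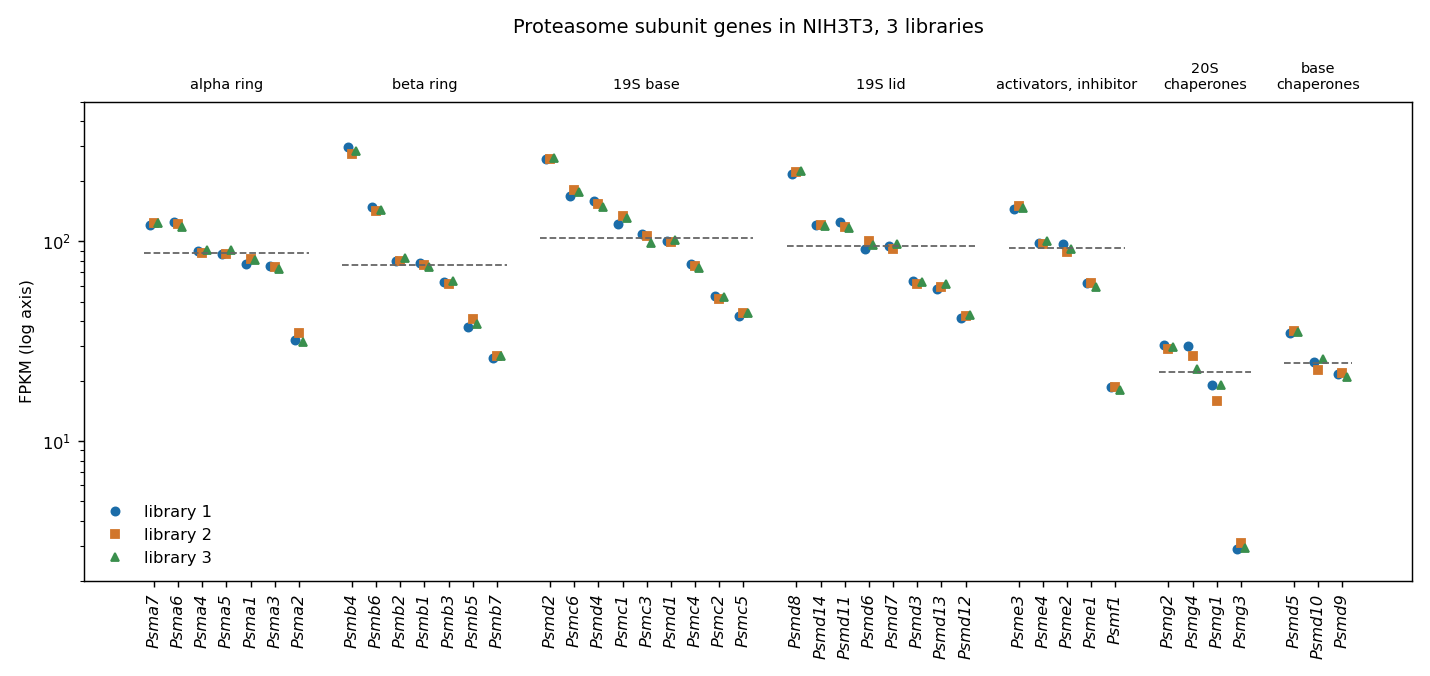
FPKM on a log axis of the 43 proteasome genes with a mean of at least 1, by class and in descending order of the mean, with 1 symbol per library and a dashed line at the class median. The libraries lie close together for nearly all genes, and the chaperone classes (medians 22.3 and 24.5 FPKM) lie below the core and cap classes (76.2 to 104.5 FPKM).

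The alpha ring forms the gate of the 20S core. All 7 of its constitutive genes exceeded 10 FPKM in every library, and their median was 87.9 FPKM. Psma7, the alpha4 subunit, was highest, at 121.3 FPKM in library 1, 123.5 in library 2 and 123.7 in library 3 (122.8 ± 1.29, SD, n = 3). Psma2, the alpha2 subunit, was lowest, at 32.0, 34.9 and 31.3 FPKM in libraries 1 to 3 (32.7 ± 1.89, SD). Every library of Psma7 was thus above every library of Psma2. Between them, from high to low, stood Psma6 (121.8), Psma4 (89.1), Psma5 (87.9), Psma1 (79.8) and Psma3 (74.3 FPKM, means). The library ranges of Psma7 and Psma6 overlapped, as did those of Psma4 and Psma5, whereas the other 4 neighbours in this deposited order did not overlap. With principal isoforms, Psma1 (62.0) stood above Psma5 (57.7) and Psma4 (57.5 FPKM).

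The beta ring carries the proteolytic sites and showed the widest range of the core classes as deposited, 10.8-fold against 3.75-fold in the alpha ring. With principal isoforms it spanned 32.8 (Psmb5) to 166.3 FPKM (Psmb4), and the alpha ring 24.0 (Psma2) to 112.3 FPKM (Psma7). The median of the beta ring was 76.2 FPKM as deposited, and no neighbours in its deposited order overlapped between libraries. Psmb4, the non-catalytic beta7 subunit, was the highest of the 45 genes as deposited, at 297.9, 275.3 and 284.8 FPKM (286.0 ± 11.3, SD, n = 3). Its level was followed by Psmb6 (144.6), Psmb2 (80.6), Psmb1 (76.2), Psmb3 (62.4), Psmb5 (38.8) and Psmb7 (26.4 FPKM, means).

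The active subunits Psmb6, Psmb7 and Psmb5 were unequal in level. Psmb6, the beta1 subunit with caspase-like activity, measured 149.2 FPKM in library 1, 141.5 in library 2 and 143.2 in library 3. Psmb7, the beta2 subunit with trypsin-like activity, measured 26.04, 26.62 and 26.63 FPKM. Psmb5, the beta5 subunit with chymotrypsin-like activity, measured 37.2, 40.7 and 38.6 FPKM. The 3 genes did not overlap in any library. The length used for Psmb7 was 2005 bases, the mean over its isoforms, and its level with the 1160 bases of its principal isoform was 45.7 ± 0.586 FPKM (SD), above the 32.8 ± 1.49 FPKM of Psmb5 with its principal isoform, so that these genes changed places. A near-identical copy of Psmb5 was listed with more fragments than Psmb5 itself, and the sum of both was 124.9 FPKM as deposited and 105.8 FPKM with principal isoforms, above Psmb7 on either scale. Psmb7 also shares 11.8% of its exonic bases with Nek6 on the opposite strand (15.05 to 15.70 FPKM), and with a kit that does not mark strand the reads of both genes cannot be told apart there.

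These subunits are made as inactive precursors and become proteases when a leader is cut off before a threonine, which then acts as the nucleophile. The coding stretch around that threonine is shown for each, since it is the part that makes a beta subunit a protease. The stretches of 45 bases were read from GENCODE M21 transcripts on GRCm38, run 5′ to 3′ along the transcript and cross an intron, and capitals mark the codon of the first threonine of the first Gly-Thr-Thr in the reading frame. It is preceded by 59 residues in Psmb5 (chr14:54616813-54617829, minus strand), by 33 in Psmb6 (chr11:70525481-70525914, plus strand) and by 43 in Psmb7 (chr2:38642273-38643399, minus strand).
Psmb6: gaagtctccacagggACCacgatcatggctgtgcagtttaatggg
Psmb7: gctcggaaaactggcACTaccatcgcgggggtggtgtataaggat
Psmb5: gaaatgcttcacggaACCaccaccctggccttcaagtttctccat

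Interferon-inducible relatives can replace the active subunits and form the immunoproteasome, which is abundant in immune cells. In these cells each constitutive gene exceeded its inducible counterpart in every library. Psmb8, the counterpart of Psmb5, was seen in 2 fragments of library 1, 1 of library 2 and 0 of library 3 (0.115, 0.0595 and 0 FPKM). Pooled over libraries, the FPKM of Psmb5 was 664 times that of Psmb8 (95% exact interval 227 to 3224, for counting error only), without the fragments of the Psmb5 copy described below. Psmb9, the counterpart of Psmb6, measured 1.52, 1.63 and 1.72 FPKM, and the Psmb6 level was 89.3 ± 7.91 times higher (SD, n = 3). Psmb10, the counterpart of Psmb7, was the highest inducible gene, at 7.20, 7.26 and 6.91 FPKM.

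The gap between Psmb7 and Psmb10 was the narrowest of these pairs, at 3.71 ± 0.126 times (log2 ratio 1.89 ± 0.05, SD), and the log2 ratio was 3.40 with principal isoform lengths. Each of these ratios had the same sign in 3 of 3 libraries, with p = 0.25 when the signs were permuted exactly (two-sided sign-flip test), the smallest p that 3 libraries allow (adjusted p = 0.25 over 11 ratios). Libraries with 0 to 2 fragments of Psmb8 entered this test at the limit of 3 fragments. Psmb9 shares 5.79% of its exonic bases with Tap1 on the opposite strand (10.5 to 11.3 FPKM). Markers of lymphoid and myeloid cells, which use these inducible subunits, were nearly absent, with 1 of 10 genes at 1 FPKM or more (Lyz2, 2.54 FPKM), a summed FPKM of 2.664 to 2.998 per library, and Cd3e, Cd8a, Itgam and H2-Aa at 0.

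**Figure D2:**
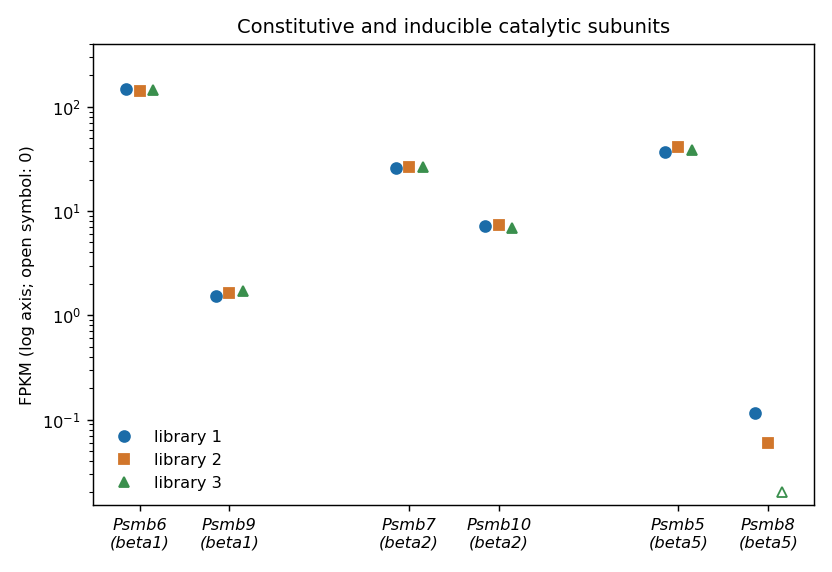
FPKM on a log axis of the constitutive active subunits beside their interferon-inducible counterparts, with 1 symbol per library and an open symbol for a value of 0, drawn at the bottom of the axis. The constitutive gene is higher in all pairs, by 89.3 times for Psmb6 over Psmb9 and by 3.71 times for Psmb7 over Psmb10.

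The tissue-restricted core subunits were at or near 0. Psma8, the germ cell form of the alpha4 subunit, had 0 fragments in every library, which allows at most 0.205 FPKM at 3 fragments in the shallowest library. Psma7, its ubiquitous counterpart, was at least 612-fold higher on average over libraries (603- to 619-fold) against that limit of 3 fragments per library. Psmb11, the beta5 subunit of the thymic cortex, had 2, 0 and 1 fragments (0.0576, 0 and 0.0290 FPKM). Pooled over libraries, the FPKM of Psmb5 was 1330 times that of Psmb11, with a 95% exact counting interval of 454 to 6456 and again without the Psmb5 copy. Of 4 germ cell and thymic epithelium markers, none reached 1 FPKM, their summed FPKM was 0.236 to 0.654, and the highest was Sycp3 at 0.326 FPKM.

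The 19S base, 9 genes, had the highest median of the classes as deposited, at 104.5 FPKM, but with principal isoform lengths its median of 65.4 FPKM was below the 74.99 FPKM of the beta ring. Psmd2 (Rpn1), a scaffold that docks ubiquitin shuttles, measured 257.3, 257.9 and 263.0 FPKM and was the second highest of the 45 genes as deposited. Psmc5 (Rpt6), an ATPase, was the lowest of the base at 42.2, 43.6 and 43.8 FPKM. No library of Psmc5 came near those of Psmd2. The 6 ATPases, each present once in the ATPase ring, spread as deposited from Psmc6 (175.2) over Psmc1 (129.1), Psmc3 (104.5), Psmc4 (75.5) and Psmc2 (52.5) to Psmc5 (43.2 FPKM, means). With principal isoform lengths they lay closer together, from Psmc2 (77.3) over Psmc6 (66.9), Psmc1 (65.4), Psmc3 (60.0) and Psmc4 (57.8) to Psmc5 (44.5 FPKM). As deposited, Psmd4 (Rpn10), a ubiquitin receptor, stood at 153.9 FPKM and Psmd1 (Rpn2), the large scaffold, at 100.3 FPKM. Only Psmc3 and Psmd1 overlapped among the 8 neighbours of the base in the deposited order. Psmc3 shares 8.25% of its exonic bases with Slc39a13 on the opposite strand (57.8 to 59.3 FPKM).

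The 19S lid was close to the base, with medians over its 8 genes of 92.8, 95.8 and 96.4 FPKM in libraries 1 to 3. Psmd8 (Rpn12) was highest, at 218.3, 222.0 and 224.4 FPKM. Psmd12 (Rpn5) was lowest, at 41.6, 42.1 and 42.9 FPKM. The remaining lid genes lay between them without reaching either. Psmd14 (Rpn11), the deubiquitinase that cleaves the ubiquitin chain off the substrate, averaged 120.6 ± 0.509 FPKM (SD). Its coefficient of variation of 0.422% was the smallest of the lid, but counting alone gives 2.91%. Its catalytically inactive partner Psmd7 (Rpn8) averaged 94.4 FPKM. With principal isoforms the order of this pair turned, with Psmd14 at 53.9 and Psmd7 at 72.9 FPKM. Psmd11 (119.8), Psmd6 (95.6), Psmd3 (62.4) and Psmd13 (59.3 FPKM, as deposited) are structural lid subunits. Overlapping library ranges were found for Psmd14 and Psmd11, for Psmd6 and Psmd7, and for Psmd3 and Psmd13. Psmd13 shares 10.1% of its exonic bases with Sirt3 on the opposite strand (9.20 to 10.6 FPKM).

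The order of the large assemblies depended on the gene length that enters FPKM. With the deposited values, the ratio of the 20S median (80.2 FPKM) to the 19S median (100.3 FPKM) was 0.805 ± 0.0256 (SD, n = 3; log2 ratio -0.31 ± 0.05), below 1 in 3 of 3 libraries, but the log2 ratio was 0.10 with principal isoform lengths and 0.18 with the longest isoform. The ratio of alpha ring to beta ring was 1.15 ± 0.0519 (log2 ratio 0.20 ± 0.06), but the log2 ratio was -0.37 with principal isoforms, -0.17 with longest isoforms and -0.23 with class means in place of medians. The ratio of base to lid was 1.11 ± 0.0562 (log2 ratio 0.15 ± 0.07), and it kept its sign under all alternatives tried. Each of these ratios again had the smallest possible p, 0.25, in the exact permutation of signs. No order of core against cap or of alpha against beta ring can therefore be read from these libraries.

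Recovered fragments were whole when each gene was given the mean length over its annotated isoforms, short and non-coding isoforms included. For the 19S base, the principal isoform, the one that the annotation marks as the main coding form, was 1.74 times that length in the median gene, and for the beta ring 1.03 times. A gene with many short isoforms therefore has a higher FPKM than its main transcript would give. Psmd2 fell from 259.4 to 101.1 FPKM with its principal isoform (2961 bases against 1154 used), and Psma3 from 74.3 to 27.6 FPKM (2846 bases against 1055). Over the 31 constitutive 26S subunits the highest and lowest genes differed 10.8-fold as deposited (Psmb4 and Psmb7) and 6.97-fold with principal isoforms (Psmd8 and Psma2). Within 2-fold of their median lay 23 of 31 genes as deposited and 24 of 31 with principal isoforms. Different genes thus marked the ends of the range on these scales. With principal isoforms, the highest gene of the base was Psmd4 (144.8 FPKM) and the lowest gene of the lid was Psmd13 (29.9 FPKM).

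**Figure D3:**
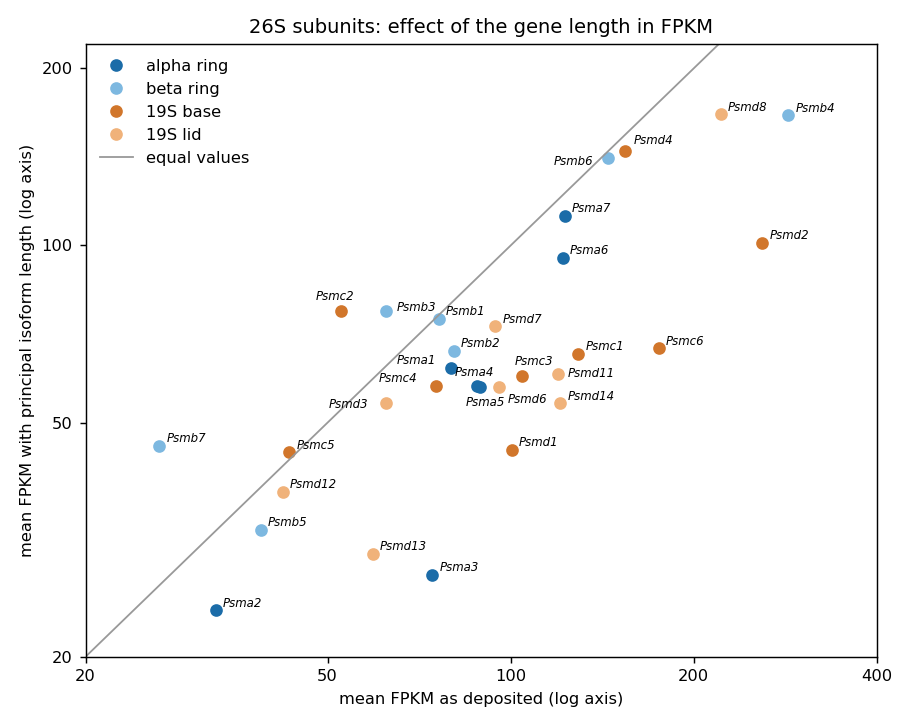
Mean FPKM of the 31 constitutive 26S subunit genes as deposited (x axis) and recomputed with the principal isoform length (y axis), both on log axes, coloured by class, with a line of equal values. Most points lie below the line, and the range narrows from 10.8-fold on the x axis to 6.97-fold on the y axis.

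The activators open the core without ubiquitin or ATP, and the class had a median of 92.2 FPKM over 5 genes. Psme1 and Psme2 form PA28 alpha-beta, the ring associated with antigen processing, at 61.6, 62.1 and 59.0 FPKM for Psme1 and 96.8, 88.3 and 91.6 FPKM for Psme2. Psme3, the nuclear PA28 gamma, measured 145.1, 149.9 and 147.4 FPKM. Psme4 (PA200), a large single-chain activator, measured 98.60, 96.88 and 100.04 FPKM. The classes of activator were thus all expressed, and no neighbours in the deposited order overlapped. Psmf1 (PI31), which inhibits the core in vitro, was lowest at 18.7, 18.6 and 18.1 FPKM. With principal isoforms the order was Psme2 (58.97), Psme3 (58.84), Psme1 (44.5), Psme4 (21.7) and Psmf1 (17.5 FPKM), and the class median was 44.5 FPKM.

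Within the activators, the ratio of Psme1 to Psme2 was 0.661 ± 0.0368 (SD, n = 3; log2 ratio -0.60 ± 0.08), although both sit in 1 ring, and the log2 ratio was -0.41 with principal and -1.24 with longest isoforms. The ratio of Psme3 to Psme4 was 1.497 ± 0.0437 (log2 ratio 0.58 ± 0.04), and with principal isoforms the log2 ratio was 1.44, since the 6491 bases of the Psme4 transcript are 4.53 times the length used. Both ratios kept their sign in 3 of 3 libraries, with p = 0.25 by the exact sign-flip permutation test.

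The assembly chaperones help build the core and the base and then leave, and the medians of both their classes were the lowest apart from that of the tissue-restricted subunits. Single genes of other classes, such as Psmf1, were as low. The ratio of their median to that of the 20S core was 0.294 ± 0.01997 (SD, n = 3; log2 ratio -1.77 ± 0.10), lower in 3 of 3 libraries, with p = 0.25 by the exact sign-flip permutation test, and the log2 ratio was -2.02 with principal isoforms and -1.92 with longest isoforms. Psmg1 and Psmg2, which pair to start the alpha ring, measured 19.2, 15.8 and 19.1 FPKM and 30.3, 28.8 and 29.6 FPKM. Psmg3 and Psmg4, which pair as well, were far apart, with Psmg3 at 2.90, 3.10 and 2.92 FPKM and Psmg4 at 30.0, 26.7 and 23.1 FPKM. Psmg3 rested on 170 fragments over all libraries and Psmg4 on 585. Psmg3 stayed low with its principal isoform (4.93 FPKM), and 9.68% of its exonic bases lie in Gm26938 on the same strand, a gene at 0 FPKM.

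The base chaperones, which hold ATPase pairs before they join the ring, lay close together as deposited. Psmd5 (S5b) measured 34.6, 35.7 and 35.2 FPKM, Psmd10 (gankyrin) 24.9, 22.8 and 25.9 FPKM, and Psmd9 (p27) 21.67, 21.96 and 21.01 FPKM. No neighbours among these overlapped between libraries. With principal isoforms, however, Psmd10 was highest at 24.2 FPKM, followed by Psmd5 at 15.8 and Psmd9 at 11.2 FPKM. Psmd9 shares 25.5% of its exonic bases with Gm26745 on the opposite strand, which was at 0.0373 FPKM or less. Over all classes, 7 of 36 neighbours in the order of deposited levels overlapped between libraries.

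The spread between libraries was near the counting error. Among the 42 genes that averaged 10 FPKM or more, the chi-square statistic of fragments over libraries exceeded its 5% limit of 5.99 for 4 genes, which were Psma2, Psmb4, Psmc3 and Psmg4. Over all genes at this level 11.5% did so, compared with 9.52% of the proteasome genes. The SD of 27 of the 42 genes was below the SD that counting alone gives. With 3 libraries an SD falls below its true value more often than not, so this count shows no spread under the counting error. The median coefficient of variation was 2.62%, against 2.98% from counting and 3.02% for all genes at this level. The median chi-square was 1.46, against 1.39 by counting error alone and 1.73 for all genes at this level. Library 1 was highest for 16 of the 42 genes, library 2 for 11 and library 3 for 15, so no library stood apart for this group.

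The 5 genes that varied most among those at 1 FPKM or more were 3 chaperones and 2 subunits. Psmg4 had a coefficient of variation of 13.1% (7.16% from counting alone), with library 1 highest and library 3 lowest. Psmg1 followed with 10.6% (7.03% from counting), with library 2 lowest. Psmd10 had 6.46%, Psma2 5.76% and Psmc3 4.89%. At the 1% limit of chi-square, 0 of the 42 genes were above it, compared with 4.96% of all genes at this level.

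**Figure D4:**
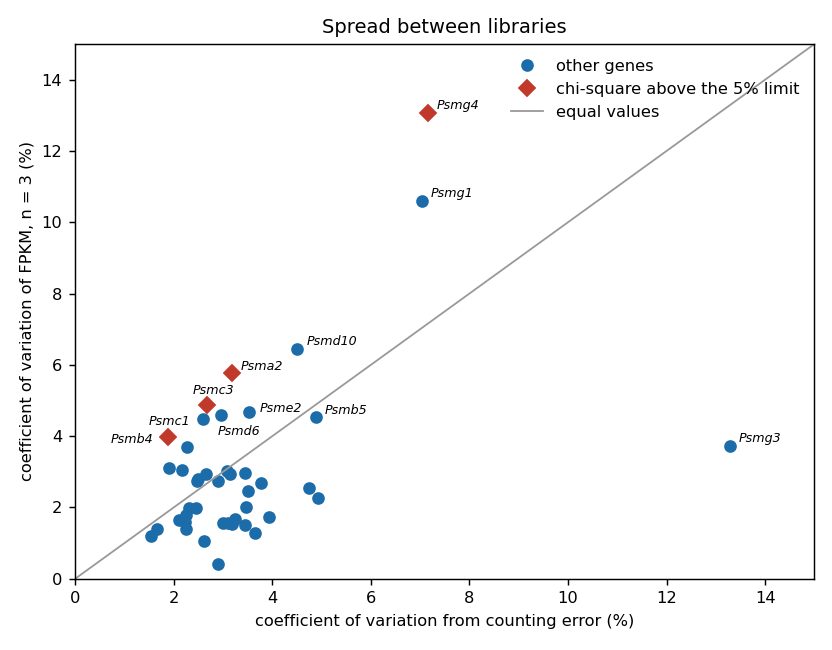
Coefficient of variation of FPKM over 3 libraries (y axis, %) against that given by counting error alone (x axis, %) for the 43 genes that averaged 1 FPKM or more, with a line of equal values and diamonds for the 4 genes above the 5% limit of chi-square. Most genes lie near or below the line, whereas Psmg4 reaches 13.1%.

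Several proteasome genes have near-identical copies elsewhere in the genome, so their levels are uncertain. A copy was taken as an annotated gene that holds at least 10% of the 75-base words of a proteasome gene, a limit set after the values were seen. The processed pseudogene Gm3375 (chr7:3181093-3181888, plus strand) covers all 795 coding bases of Psmb5 with 8 differences. It was listed at 82.7, 81.0 and 83.4 FPKM and held 2799 fragments against 1260 of Psmb5, 2.22 times as many. The sum of both was 124.9 ± 1.16 FPKM (SD, n = 3), which would place Psmb5 above Psmb7, Psmb3, Psmb1 and Psmb2 of the beta ring.

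The other copies held fewer fragments than their source. Gm13835 (chr6:31141979-31142663, minus strand) matches 665 coding bases of Psma3 with 0 differences and was listed at 56.8, 59.2 and 58.9 FPKM, so that the sum with Psma3 was 112.2 ± 0.750 FPKM. Psme2b (chr11:48945354-48946190, minus strand), annotated as protein coding, matches 794 bases of Psme2 with 5 differences and was listed at 32.6, 32.8 and 35.0 FPKM, with a sum of 137.8 ± 4.31 FPKM. The pseudogenes Gm8394 and Gm12989 of Psma5 were lower, at 4.91 ± 0.982 and 7.61 ± 1.67 FPKM. With the fragments of all copies added, the log2 ratio of 20S to 19S medians moved from -0.31 to -0.07 and that of Psme1 to Psme2 from -0.60 to -1.18. The log2 ratio of Psmb5 to Psmb8 moved from 7.79 to 9.48 and that of Psmb5 to Psmb11 from 8.79 to 10.48, both with the limit of 3 fragments per library. Pseudogenes that the table itself names after a proteasome gene were at 0.0543 FPKM or less.

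Stretches of 90 coding bases are shown for the copies with the most fragments, because they show how little sequence separates a copy from its source. They are from GENCODE M21 on GRCm38, 5′ to 3′ along the transcript, and capitals mark the bases that differ between a gene and its copy. The Psmb5 stretch (chr14:54616555-54616644, minus strand) and the Gm3375 stretch (chr7:3181469-3181558, plus strand) have 3 differences. Psme2 (chr14:55588049-55588276, minus strand, across an intron) and Psme2b (chr11:48945576-48945665, minus strand) also have 3. The stretch of Psma3 (chr12:70978815-70983407, plus strand, across an intron) is the same in Gm13835 (chr6:31142554-31142643, minus strand), so no base of it could assign a read.
Psmb5: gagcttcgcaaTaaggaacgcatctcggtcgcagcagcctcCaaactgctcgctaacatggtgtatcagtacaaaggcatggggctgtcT
Gm3375: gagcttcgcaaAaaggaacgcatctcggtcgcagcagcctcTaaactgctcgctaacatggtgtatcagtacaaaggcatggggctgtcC
Psme2: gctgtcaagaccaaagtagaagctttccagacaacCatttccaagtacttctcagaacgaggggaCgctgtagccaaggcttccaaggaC
Psme2b: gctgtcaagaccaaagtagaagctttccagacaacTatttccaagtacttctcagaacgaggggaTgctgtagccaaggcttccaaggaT
Psma3 and Gm13835: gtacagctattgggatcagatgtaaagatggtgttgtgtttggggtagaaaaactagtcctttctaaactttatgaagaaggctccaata

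**Figure D5:**
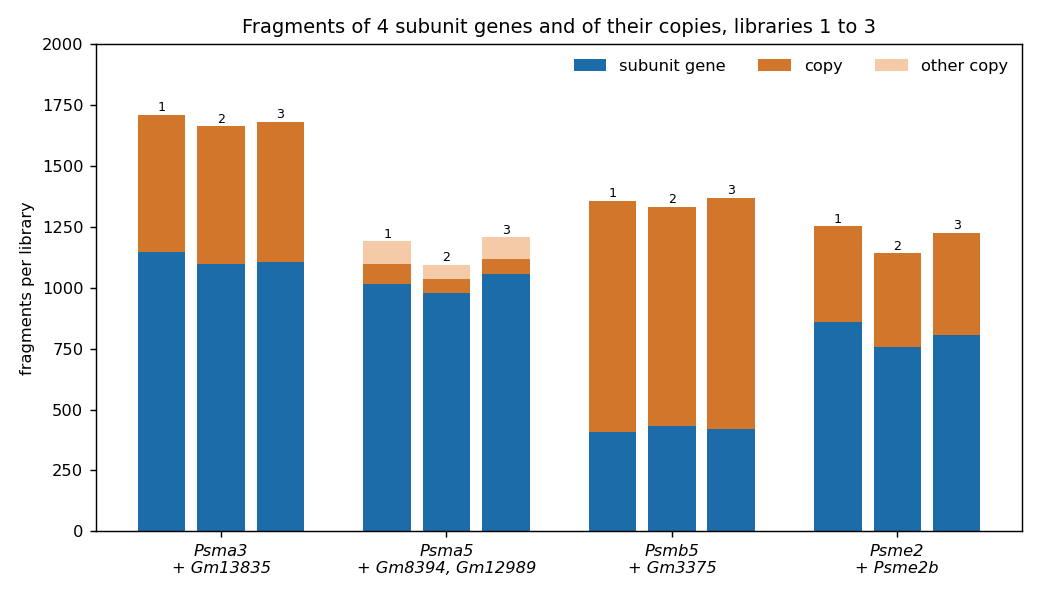
Fragments per library (y axis) of Psma3, Psma5, Psmb5 and Psme2 and of their near-identical copies, stacked, with 1 bar per library numbered 1 to 3. The copy takes the larger part of the stack only for Psmb5, where it holds 2.22 times the fragments of the gene.

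The genes that supply and assist the proteasome were described from a list of 28 genes, of which 27 were found and Paaf1 was not found under that symbol. Of the 27, 26 had a mean FPKM of at least 1 and 25 of at least 10, and their median was 71.4 FPKM. Among the ubiquitin genes, Ubb measured 641.2, 632.4 and 619.8 FPKM. Rps27a, which encodes ubiquitin fused to a ribosomal protein, measured 226.5, 699.2 and 618.3 FPKM, so that library 1 lay far below the others and the order of Ubb and Rps27a was not the same in every library. Among the 43 proteasome genes at 1 FPKM or more, the widest ratio between libraries was 1.30 (Psmg4). The main E1 enzyme Uba1 stood at 176.9 FPKM and Uba6 at 16.9 FPKM.

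Factors that sit on the 26S proteasome ranged from the adaptor Ecpas (102.1 FPKM) to the ubiquitin ligase Ube3c (26.7 FPKM). Shuttle factors, which deliver ubiquitin-tagged proteins, ranged from Rad23b (271.3 FPKM) to Ubqln2 (42.8 FPKM). The core maturation factor Pomp stood at 46.3 ± 0.419 FPKM and the nuclear import factor Akirin2 at 42.0 ± 0.884 FPKM (SD), both above every Psmg gene as deposited and with principal isoforms. Nfe2l1, the transcription factor known to raise proteasome genes when proteolysis is short, stood at 242.0 ± 1.86 FPKM, whereas its relative Nfe2l3 was at 0.122 FPKM.

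The promoters were examined for short motifs, since most of these genes were expressed in the same libraries. RefSeq windows on GRCm38.p6, from 250 bases before to 50 after the start, were found for 37 of the 45 genes (40 windows) and not for Psmb1, Psmb2, Psmb7, Psma8, Psmc3, Psmd3, Psmd7 and Psmg2. Each motif was searched on both strands and separately, so that a base could count for more than 1 motif. The ETS core CCGGAAG was in 15 windows (37.5%), compared with 8.86% of all 32851 windows and 19.4% of the 8190 windows whose genes averaged 10 FPKM or more. A loose form of the Maf and CNC core, TGANNNNGC with N as any base, was in 57.5%. It was in 41.3% of all windows and 42.8% of those expressed windows. The GC box GGGCGG was in 57.5%, against 35.7% and 67.1%, the CCAAT box CCAAT in 32.5%, against 37.4% and 37.3%, and the TATA box TATAAA in 7.50%, against 13.6% and 6.496%.

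The median base composition of the windows was 58.2% G and C with 19 CpG, between all windows (52.7% and 7) and those of expressed genes (62.0% and 22). The genes with CCGGAAG had a median of 109.2 FPKM as deposited and those without it 74.3 FPKM, which is a description of 14 and 23 genes. With and without the GC box the medians were 90.7 and 62.4 FPKM, and for TGANNNNGC 87.9 and 77.6 FPKM. They were 100.3 and 74.9 FPKM for the TATA box, held by 3 genes, and 79.8 and 81.7 FPKM for the CCAAT box. All of these FPKM medians are of deposited levels. With principal isoform lengths the order of with and without turned for the GC box and for the CCAAT box. A link of any motif with the level was not tested. The stretches with CCGGAAG before the start are shown for the 4 genes with the highest FPKM that hold it, with the motif in capitals, written CTTCCGG where it lies on the other strand. They run 5′ to 3′ along the gene, at chr16:20651606-20651651 (plus strand) for Psmd2, chr14:45329704-45329750 (plus strand) for Psmc6, chr3:95042713-95042759 (minus strand) for Psmd4 and chr11:101316086-101316132 (plus strand) for Psme3.
Psmd2: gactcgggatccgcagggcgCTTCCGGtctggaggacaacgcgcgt
Psmc6: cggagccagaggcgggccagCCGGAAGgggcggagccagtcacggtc
Psmd4: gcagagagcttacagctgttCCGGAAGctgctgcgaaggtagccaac
Psme3: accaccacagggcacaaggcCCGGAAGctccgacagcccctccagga
Between the motif and the start lay 19 bases in Psmd2, 93 in Psmc6, 118 in Psmd4 and 100 in Psme3.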

How the data were processed

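NIH3T3 total RNA was sequenced as 150-nt paired-end reads. The authors deposited FPKM values, calculated from HTSeq read numbers after UMI duplicates were removed. The submitters' processing notes name UMI-tools 1.0.0, HISAT2 2.0.4, HTSeq 0.6.1 and DESeq 1.10.1, and the genome build, annotation and strand setting are not given in the sources used here. The table holds 55573 genes and 3 libraries, and 0 columns were left unused.

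Since FPKM is not a count unit, no count model was fitted to the deposited values. The chi-square statistic, counting errors and counting intervals rest on fragments recovered from them. Fragments were recovered (Python 3.11.15, with pandas 2.3.3 and numpy 2.4.6) from the library totals shown by single-isoform genes and the mean isoform length in GENCODE M21 on GRCm38, where 55480 gene IDs were found. Values were whole within 0.02 fragments in all libraries for 25973 of 26193 detected genes and for all 45 proteasome genes. The recovery and the chi-square statistic were tested on simulated fragments. Gene positions and exonic overlaps are from the same annotation. Ratios were taken within each library, with p-values adjusted by Benjamini-Hochberg, and counting intervals are exact (scipy 1.17.1). A limit for a count of 0 is 3 fragments. Intervals and limits cover counting error only.

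Members, lists and tests were chosen with earlier results of these data known. Given with a value in each library were the highest and lowest gene of each class, the active subunits, all activators and chaperones, the tissue-restricted subunits and the 5 genes with the largest coefficient of variation. Copies, their stretches and the promoter motifs were chosen after values were seen. Alternatives covered leaving out each replicate, other scalings, pseudocounts, gene lengths, limits and class averages, and adding pseudogenes. Principal isoform lengths, copies added and the range over 26S subunits were added after seeing the data. A few listed genes are not reported here by name.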

Additional observations from a re-analysis of the deposited data

How the results depend on the processing

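Of 126 alternatives, 7 moved a value or count, 5 reversed a ratio, and 114 did neither, which for a ratio means only that its sign held. Among these, the log2 ratio of Psme3 to Psme4 went from 0.58 to 1.44 and that of Psmb7 to Psmb10 from 1.89 to 3.40 with principal isoforms, and that of Psmb5 to Psmb8 from 7.79 to 5.23 with a pseudocount of 1 and to 9.48 with copies added. With a limit of 50 FPKM in place of 10, 30 genes passed in place of 42. The median of 76.2 FPKM moved to 110.3 after rescaling to 1000000 per library (TPM), 79.8 without genes under 1 FPKM, 57.5 with principal and 44.2 with longest isoforms. The range over the 26S subunits moved from 10.8-fold to 6.97-fold with principal and 8.94-fold with longest isoforms. With the 1% limit of chi-square, 0 proteasome genes differed between libraries, against 4 at the 5% limit, and 4.96% of all genes at this level did, against 11.5%. The log2 ratio of 20S to 19S turned from -0.31 to 0.18 with longest and 0.10 with principal isoforms. That of alpha to beta ring turned from 0.20 to -0.17 with longest isoforms, -0.37 with principal isoforms and -0.23 with class means. Leaving out 1 library reversed no result, and the count of genes above the 5% limit was then 3 to 4. No paired analysis was possible because only 1 condition was sequenced. Depth limits Psma8, Psmb8 and Psmb11, which had 0, 3 and 3 fragments in all.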
